A study of Mus musculus with 6 samples.

Results

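DNA methylation was read at 5 lymphoid identity genes in mouse bone marrow during culture with Flt3L: Pax5, Ebf1 and Cd79a of the B lineage, and Gata3 and Bcl11b of the T lineage. The members are all cytosines of the deposited table in a fixed window of the mm9 build around each gene. They are 589 of the 652716 listed cytosines. Pax5 has 143 of them, between chr4:44541356-44729644, and Ebf1 has 136, between chr11:44422291-44834354. Cd79a has 12, between chr7:25670019-25696755, Gata3 has 100, between chr2:9773254-9819468, and Bcl11b has 198, between chr12:109141970-109254151 (first and last listed cytosine). The samples are 2 of uncultured marrow (day 0, replicates 2 and 3), 2 after 4 days of culture (replicates 1 and 2), labelled common myeloid progenitors, and 2 after 7 days (replicates 1 and 4), labelled bone marrow derived dendritic cells. All are C57BL/6J and labelled male. The culture medium held supernatant of a transfected SP2/0 line that secretes Flt3L, a cytokine that supports dendritic cell growth, and the live cells of days 4 and 7 were used without a sort by type. The genes were read as a check on how lymphoid loci behave while marrow is cultured toward dendritic cells.

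Ebf1 and Pax5 are transcription factors that specify B cells and keep them committed, and Cd79a encodes a signalling chain of the B cell receptor that both factors turn on. Gata3 and Bcl11b are transcription factors needed for T cell specification and commitment. CpG islands at gene starts are often unmethylated whatever the cell type, while enhancers in and around lineage genes tend to lose methylation in the cells that use them. Marrow holds B lineage cells at several stages and few mature T cells. In a bulk sample, fewer cells of a type and a different level per cell cannot be told apart. No RNA was read here, so the labelled cell types could not be checked against expressed markers.

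The samples held 3641141 to 10242334 reads at listed cytosines, of which 2717 to 9413 lay in the 5 windows. The shallowest sample, replicate 4 of day 7, had a median of 18 reads per tested lymphoid region, and the other samples had 47 to 70. Both day 7 libraries stood apart on chromosome X: their reads per X cytosine, relative to autosomal cytosines, were 1.01 and 1.07, against 0.650 to 0.688 in the day 0 and day 4 libraries, although all 6 are labelled male. The mean level of the 19598 autosomal regions below 5% was also higher in them, at 2.33% and 2.02%, against 0.929% to 1.15% in the other 4. The part of these differences in the day 7 levels of the lymphoid genes was not tested. Day 4 and day 0 levels come from the other 4 libraries, but the day 7 libraries share the fitted spread: the lowest adjusted p of a lymphoid region for day 4 against day 0 was 0.6997 with all 6 samples, 0.596 without day 7 replicate 1 and 0.592 without day 7 replicate 4 (edgeR).

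Gene starts were placed on the table by the spacing of CpG sites in RefSeq promoter sequences (GRCm38.p6), because no mm9 gene positions were used here. By the planned minimum of 8 listed cytosines none of the 5 genes was placed. With a minimum of 6, chosen after the data were seen, the Pax5 sequence (23 CpG sites) was placed on chromosome 4 with all 6 listed cytosines at CpG sites, and the sequence of the second Ebf1 start (17 CpG sites) on chromosome 11 with all 7. The next best offset of either had 4. If the placements are right, the Pax5 start is at position 44723566 (transcribed toward lower coordinates) on mm9, to within 1 base. The Ebf1 start is then at 44433730 (toward higher coordinates). The first Ebf1 start, at 44618100 in GRCm38, was not placed. It lies before the sequence of the second, which begins at 44619978, so cytosines just before the second start lie inside the annotated gene. Below, the Ebf1 start means the second. The 250 bases before each start are shown because they carry the promoter cytosines whose levels follow, and capitals mark the CpG sites that the table lists.
Pax5 (GRCm38.p6 chr4:44710695-44710944, minus strand): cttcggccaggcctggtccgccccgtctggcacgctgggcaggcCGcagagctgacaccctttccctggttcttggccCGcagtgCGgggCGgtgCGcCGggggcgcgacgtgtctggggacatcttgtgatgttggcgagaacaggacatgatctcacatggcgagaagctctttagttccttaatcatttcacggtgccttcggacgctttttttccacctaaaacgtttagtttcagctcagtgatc
Ebf1 (GRCm38.p6 chr11:44619978-44620227, plus strand): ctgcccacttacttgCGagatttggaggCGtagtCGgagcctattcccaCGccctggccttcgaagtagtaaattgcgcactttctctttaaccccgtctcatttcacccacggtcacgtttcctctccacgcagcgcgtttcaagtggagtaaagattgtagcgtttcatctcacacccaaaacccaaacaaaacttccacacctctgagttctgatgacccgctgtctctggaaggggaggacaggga
The other 3 Ebf1 cytosines lie 17 to 29 bases after the start. The assay reads cytosines near the cut sites of MspI (CCGG) and TaqI (TCGA), each of which reads the same on both strands and does not overlap the other. Of the RefSeq promoter sequences, 52.8% hold at least 1 CCGG and 22% at least 1 TCGA. The Pax5 sequence holds 1 CCGG and 0 TCGA, and the placed Ebf1 sequence 1 of each. The sequences of Cd79a, Gata3 and Bcl11b hold 1, 2 and 3 CCGG and 0 TCGA, and were not placed, so those windows are described without reference to a gene start.

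No region of the lymphoid genes passed the test in any of the 4 comparisons. A region is a run of at least 3 listed cytosines with neighbours at most 100 bp apart. Of the 64 in the windows, 53 had at least 10 reads in each sample, with methylated and unmethylated reads among them, and were tested, with 12 at Pax5, 15 at Ebf1, 0 at Cd79a, 10 at Gata3 and 16 at Bcl11b, holding 355 of the 589 cytosines. A call needed an adjusted p below 0.05 in edgeR's likelihood ratio test, fitted over all 56105 regions of the genome, and a difference of at least 20 percentage points. For all cultured samples against day 0, 0 of 53 were called, beside 0.0107% of all regions, and the lowest adjusted p of a lymphoid region was 0.242 (edgeR). At an unadjusted p below 0.05 there were 2 of 53 (3.77%), beside 8.95% of all regions. The quasi-likelihood test of edgeR gave 1 such region (beside 5.04% of all regions) and limma gave 2 (beside 7.6%), and both called 0 of the 53 and 0 of all regions. All 4 cultured samples lay above both day 0 samples in 4 regions (7.55%, beside 9.87% of all regions) and below both in 1 (1.89%, beside 2.39%). Each of these shares was no higher than that of the genome. The median difference, cultured minus day 0, was 0.865 percentage points over the 53 regions and 1.02 over all regions.

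The level of a window is the mean over its cytosines of the methylated share of reads, so each cytosine weighs the same. Pax5, over 143 cytosines, had 37.03% and 36.1% in uncultured marrow, 38.7% and 36.4% on day 4 and 40.75% and 38.9% on day 7. Ebf1, over 131, had 45.8% and 42.6% in uncultured marrow, 48.1% and 45.9% on day 4 and 48.7% and 46.5% on day 7. All 4 Ebf1 cultured samples lay above both day 0 samples by this mean, the closest pair being 45.9% and 45.81%. The mean of all autosomal cytosines had the same order, its closest pair being 46.35% and 46.27%. Cd79a, over 12, had 26.2% and 24.4% in uncultured marrow, 23.96% and 27.3% on day 4 and 27.99% and 36.5% on day 7. Gata3, over 99, had 13.6% and 12.8% in uncultured marrow, 14.05% and 9.92% on day 4 and 14.04% and 13.9% on day 7. Bcl11b, over 198, had 53.2% and 51.99% in uncultured marrow, 53.2% and 52.9% on day 4 and 55.6% and 56.96% on day 7. On each day Gata3 was the lowest window and Bcl11b the highest. By this mean both day 7 samples were above both day 0 samples in all 5 windows, an order that all autosomal cytosines also had (48.7% and 47.8% on day 7, against 46.3% and 44.5% in uncultured marrow). With reads pooled, day 7 replicate 4 was below both day 0 samples at Gata3 (9.125%, against 9.89% and 10.7%) and at Bcl11b (46.91%, against 51.02% and 49.04%).

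**Figure D1:**
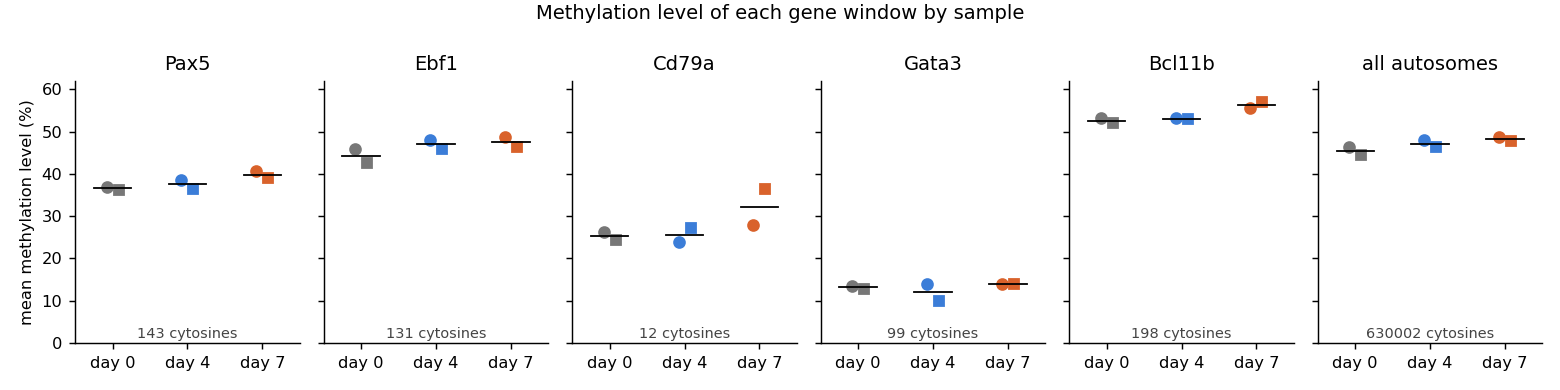
Mean methylation level (%) of the listed cytosines in each gene window and over all autosomes, by day of culture. Each point is 1 sample (circle for the lower and square for the higher replicate number of the day) and each line the mean of 2; Gata3 lies between 9.92% and 14.05% and Bcl11b between 51.99% and 56.96%.

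By the mean over cytosines, the differences of 3 windows from day 0 were within 1 point of that of the autosomes. Cultured samples averaged 38.7% ± 1.77 and day 0 samples 36.6% ± 0.646 at Pax5 (SD, n = 4 and 2), a difference of 2.13 points (two-sided exact permutation p = 0.267). At Ebf1 the means were 47.3% ± 1.32 in cultured and 44.2% ± 2.24 in day 0 samples (SD, n = 4 and 2), a difference of 3.06 points (exact permutation p = 0.1333, the smallest that 4 against 2 can give). That difference was 1.48 without day 0 replicate 3, 4.65 without day 0 replicate 2, 6.75 with reads pooled and 0.479 at the 7 cytosines with at least 10 reads. The difference was 2.07 points at Bcl11b (exact permutation p = 0.4), 3.65 at Cd79a (exact permutation p = 0.4) and -0.179 at Gata3 (exact permutation p = 0.8). Without day 7 replicate 4 it was 1.13 at Cd79a and 1.3 at Bcl11b, with reads pooled 0.354 at Bcl11b, and at Gata3 0.221 without day 0 replicate 2 and 0.841 without day 4 replicate 2. None of these could pass 0.05 in a design of this size. Over all autosomal cytosines, cultured samples averaged 47.7% and day 0 samples 45.4%, a difference of 2.295 points (exact permutation p = 0.1333, as at Ebf1). With each sample's autosomal mean subtracted, the differences were -0.169 at Pax5, 0.768 at Ebf1, 1.36 at Cd79a and -0.228 at Bcl11b (exact permutation p = 0.267 to 0.933). Gata3 stood at -34.7 ± 1.21 points relative to the autosomes in cultured samples and -32.2 ± 0.665 in day 0 samples (SD, n = 4 and 2), a difference of -2.47 (exact permutation p = 0.1333). At the 17 Gata3 cytosines of 20% or more the same difference was -5.09 and overlapped (exact permutation p = 0.533). Of the window's cytosines, 82.8% lie below 20%. Autosomal cytosines of 20% or more rose by 3.47 points, and autosomal regions below 20% by a median of 0.605 points. Subtracting the mean of all autosomes thus makes a mostly low window seem to fall, so the -2.47 points are no separate evidence of a fall. With reads pooled, autosomal cytosines averaged 46.27% in cultured and 42.96% in day 0 samples. Ebf1 and Bcl11b were then not within 1 point of the autosomal difference.

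Listed Pax5 cytosines near the start had low levels on all days. The 6 promoter cytosines, 151 to 205 bases before the start, had 6 methylated of 67 reads and 1 of 48 in uncultured marrow, 3 of 62 and 6 of 44 on day 4, and 4 of 85 and 1 of 7 on day 7. Their levels ranged from 2.08% to 14.3% and overlapped between the days, and they were not tested because day 7 replicate 4 had under 10 reads. The Pax5 region below 20% with most cytosines (20, 44726920 to 44727372, its near edge 3.35 kb before the start) had 6.69% and 4.12% in uncultured marrow, 8.83% and 10.4% on day 4 and 8.33% and 5.41% on day 7. Its cultured mean was 8.25% and its day 0 mean 5.40%, with overlapping values (adjusted p = 0.743, edgeR); the difference of 2.85 points was 1.56 without day 0 replicate 3. The region of 8 cytosines from 44716852 to 44716916, 6650 to 6714 bases after the start, had 0.781% and 0% in uncultured marrow, 3.29% and 1.92% on day 4 and 3.95% and 4.65% on day 7. All cultured samples were above both day 0 samples there, by 3.06 points between the means (adjusted p = 0.538, edgeR), beside a median of 0.605 points over the 23078 autosomal regions below 20%. The neighbouring region of 12 cytosines from 44716376 ranged over 1.198% to 11.8%, and that of 15 from 44677345, 46.1 kb after the start, over 1.82% to 8.15%.

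Farther into Pax5, at distances within the 185947 bases that the gene spans in GRCm38, levels were mixed. A region of 3 cytosines from 44599393 to 44599428, 124.1 kb after the start, had 63.0% and 63.6% in uncultured marrow, 83.0% and 71.4% on day 4 and 86.3% and 73.3% on day 7, on 15 to 51 reads. Its cultured mean was 78.5% ± 7.24 and its day 0 mean 63.3% ± 0.476 (SD, n = 4 and 2), a difference of 15.2 points (adjusted p = 0.585, edgeR). The groups did not overlap, and 91.8% of autosomal regions between 20% and 80% had a smaller difference, but this region was picked after its values were seen. The region from 44571073 had the opposite direction, at 5.56% and 19.05% in uncultured marrow, 4.76% and 6.67% on day 4 and 3.33% and 6.67% on day 7. Its groups overlapped (difference -6.94 points, adjusted p = 0.655, edgeR). Regions from 44568258 and 44577975, 155.2 and 145.6 kb after the start, averaged 57.2% and 54.6% over the 6 samples, with differences of -2.21 and 2.20 points. The 3 Pax5 regions above 80% had differences of -0.720 to 2.34 points. In the window 35.7% of cytosines lay between 20% and 80%, beside 25.5% in the whole table.

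The tested Ebf1 regions before the placed start had low levels, while single listed cytosines there, outside any region, did not all: that at 44422394 had 70% to 100% in the 6 samples. The 4 regions whose near edges lie 6.78 to 8.96 kb before the start had 0% to 6.67% in the 6 samples, and the region of 4 cytosines 2.69 kb before it had 0% to 1.79%. The 4 promoter cytosines 201 to 235 bases before the start had 7.14% and 2.78% in uncultured marrow, 3.57% and 6.25% on day 4 and 3.13% and 16.7% on day 7. The 3 cytosines 17 to 29 bases after it had 9.80% and 16.1% in uncultured marrow, 10.8% and 14.3% on day 4 and 12.96% and 28.6% on day 7. In both, day 7 replicate 4 was the highest sample, on 12 and 14 reads. Without it the differences from day 0 were -0.942 and -0.221 points, and with it 2.44 and 3.68. The Ebf1 region below 20% with most cytosines, 11 from 44433901 to 44434105 (171 to 375 bases after the start), had 14.4% and 17.4% in uncultured marrow, 15.3% and 22.02% on day 4 and 20.5% and 22.1% on day 7. Its groups overlapped through day 4 replicate 1, and the cultured mean of 19.96% was 4.10 points above the day 0 mean of 15.9% (adjusted p = 0.887, edgeR). That difference was 2.6 without day 0 replicate 2 and 2.41 without day 4 replicate 2.

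The body of Ebf1 was methylated at most regions and showed no common direction. These regions lie 144.8 to 362.4 kb after the start, within the 389997 bases that the gene spans in GRCm38. The region of 3 cytosines from 44591169 to 44591193 had the largest difference of the window, -9.39 points, with 75.4% and 95% in uncultured marrow, 77.2% and 67.3% on day 4 and 82.6% and 76.2% on day 7. The groups overlapped (adjusted p = 0.766, edgeR), and without day 0 replicate 3 the difference was 0.406 points. The region of 6 cytosines from 44796137 had 72.97% to 83.0% in all samples and a difference of 0.459 points. Those from 44578520, 44680159 and 44733569 had differences of 3.01, -1.02 and -4.24 points. Regions of 3 and 6 cytosines 213.2 and 213.3 kb after the start were low inside this methylated body, at 10% to 20% and 7.89% to 18.8% in the 6 samples.

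**Figure D2:**
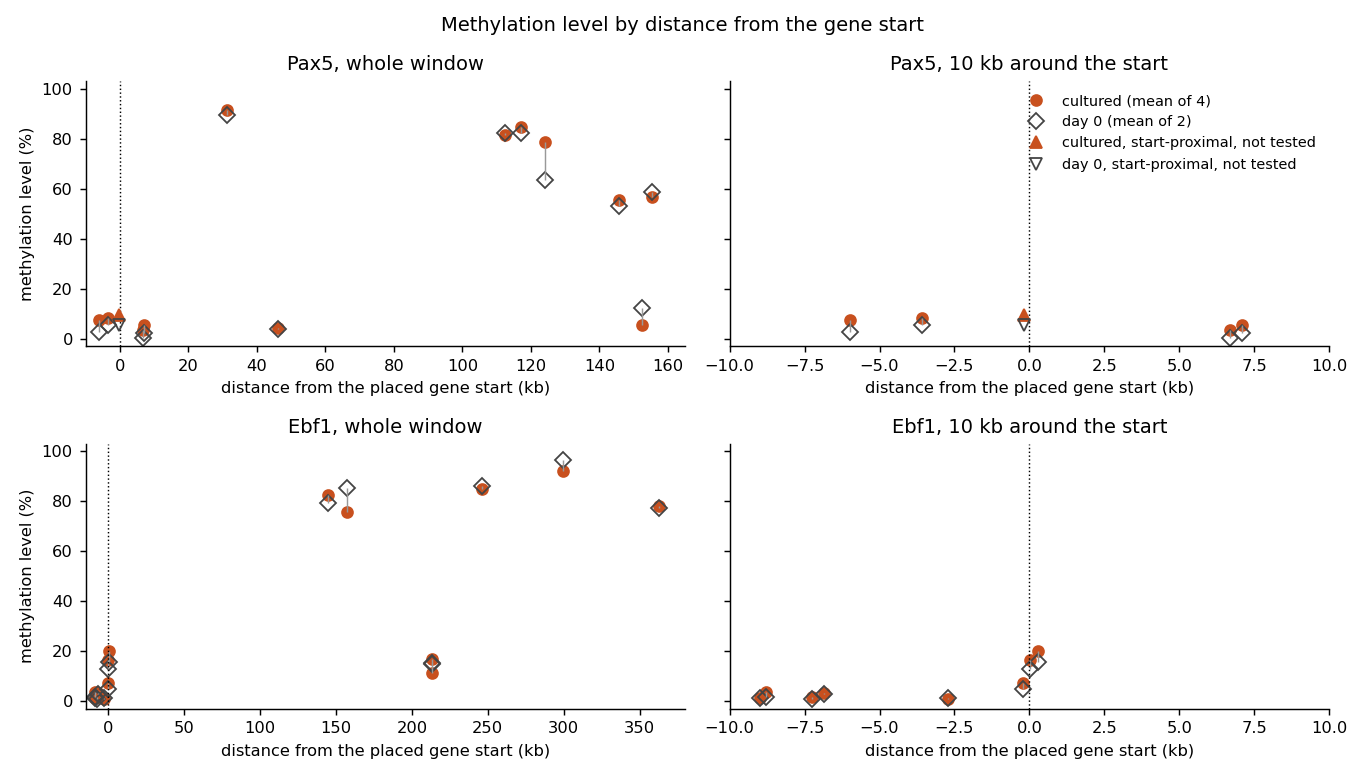
Methylation level (%) of tested Pax5 and Ebf1 regions against distance from the placed gene start (kb, positive after the start), over the whole window and over 10 kb either side. Filled circles are means of 4 cultured samples and open diamonds means of 2 day 0 samples, and triangles are the untested Pax5 promoter cytosines; Ebf1 reaches 19.96% in cultured and 15.9% in day 0 samples just after its start, and the Pax5 pair farthest apart is at 78.5% and 63.3%.

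The Cd79a window held only 12 listed cytosines and had no region to test. The gene spans 4362 bases in GRCm38 and the window 30 kb, so most of the window lies outside the gene. Its start was not placed, so which of the 12 cytosines lie in the gene, if any, is not known. The 4 at the lower edge of the window, 25670019 to 25670160, had 1 methylated of 94 reads and 0 of 55 in uncultured marrow, 1 of 75 and 0 of 43 on day 4, and 4 of 118 and 0 of 31 on day 7. The pair from 25689414 to 25689423 had 1 of 24 and 0 of 16 in uncultured marrow, 1 of 18 and 0 of 8 on day 4, and 0 of 8 and 0 of 12 on day 7. These 6 cytosines had few methylated reads in every sample, but the pair had only 8 and 12 reads on day 7. With the reads of all samples summed, 0 of 43 were methylated at 25689414, which allows a level of up to 6.98%. At 25670132 it was 0 of 116, which allows up to 2.59%. These limits hold for the samples together and not for a single day. The cytosine at 25687173 had 10% and 0% in uncultured marrow, 0% and 12.5% on day 4 and 21.4% and 33.3% on day 7, on 6 to 14 reads. Both day 7 samples were the highest there, on 3 and 2 methylated reads. The cytosine at 25687300 had 7.14% to 25% in the 6 samples, with overlapping days, and those at 25677913, 25696597 and 25696755 had 60% to 100%. The window mean of 36.5% in day 7 replicate 4 includes 1 methylated read of 1 at 25671744. With all reads of the window pooled, the level was 17.8% and 15.9% in uncultured marrow, 22.98% and 24.4% on day 4 and 22.3% and 19.05% on day 7.

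Gata3 lay in a broad stretch of low levels. Of its 10 tested regions 9 averaged below 20%, and 82.8% of its cytosines did, beside 40.7% of the whole table. The region with most cytosines, 20 from 9804400 to 9804862, had 1.48% and 0.389% in uncultured marrow, 0.885% and 0.654% on day 4 and 2.15% and 1.59% on day 7, on 189 to 452 reads. Its difference of 0.384 points (adjusted p = 0.970, edgeR) was below the median of autosomal regions of its class, and was -0.162 without day 0 replicate 3. The region of 9 cytosines from 9806082 to 9806302 had 10.8% and 12.2% in uncultured marrow, 15.1% and 9.73% on day 4 and 25.9% and 9.09% on day 7. Its difference of 3.46 points rests on day 7 replicate 1, without which it was -0.748 (adjusted p = 0.834 with all samples, edgeR). The other 7 low regions had differences of -2.39 to 3.08 points. The only methylated region, 3 cytosines from 9784032, ranged over 55.6% to 91.7%, with overlapping days.

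Bcl11b combined methylated and unmethylated blocks. Its largest region, 37 cytosines from 109154405 to 109155059, had 88.9% and 89.7% in uncultured marrow, 90.1% and 90.4% on day 4 and 92.7% and 99.2% on day 7, on 120 to 584 reads. All cultured samples were above both day 0 samples, with means of 93.1% ± 4.22 in cultured and 89.3% ± 0.601 in day 0 samples (SD, n = 4 and 2). The difference of 3.79 points (adjusted p = 0.693, edgeR) stands beside a median of 2.5 points over the 20003 autosomal regions above 80%, and was 2.17 without day 7 replicate 4, the sample with 120 reads. Regions of 15 cytosines each from 109240135 and from 109244461 had 0% to 4.84% and 0.465% to 6.58% in the 6 samples (adjusted p = 0.684 and 0.639, edgeR). The region of 4 cytosines from 109244737 to 109244753 was the 1 lymphoid region with all cultured samples below both day 0 samples. It had 12.5% and 13.2% in uncultured marrow, 6.15% and 9.38% on day 4 and 5.26% and 9.52% on day 7. Its means were 7.58% in cultured and 12.9% in day 0 samples, a difference of -5.29 points (adjusted p = 0.727, edgeR).

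The largest difference of any lymphoid region was in the Bcl11b window, at the 3 listed cytosines farthest up the chromosome, 109254100 to 109254151. They had 60.5% and 76.9% in uncultured marrow, 84.4% and 94.7% on day 4 and 95% and 90.9% on day 7. The groups did not overlap, and the cultured mean of 91.3% ± 4.92 was 22.6 points above the day 0 mean of 68.7% ± 11.6 (SD, n = 4 and 2; adjusted p = 0.242, unadjusted p = 0.00198, edgeR). Of autosomal regions above 80% by the mean of all 6 samples, 99.6% had a smaller difference. The region is in that class only through its cultured samples, as its day 0 mean was below 80%. That share is therefore no separate evidence. The difference rests on 11 to 45 reads a sample, and the region was picked after its values were seen. The other 4 Bcl11b regions above 80% had differences of -0.903 to 12.1 points, and the 3 between 20% and 80% of -8.33 to 7.66.

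**Figure D3:**
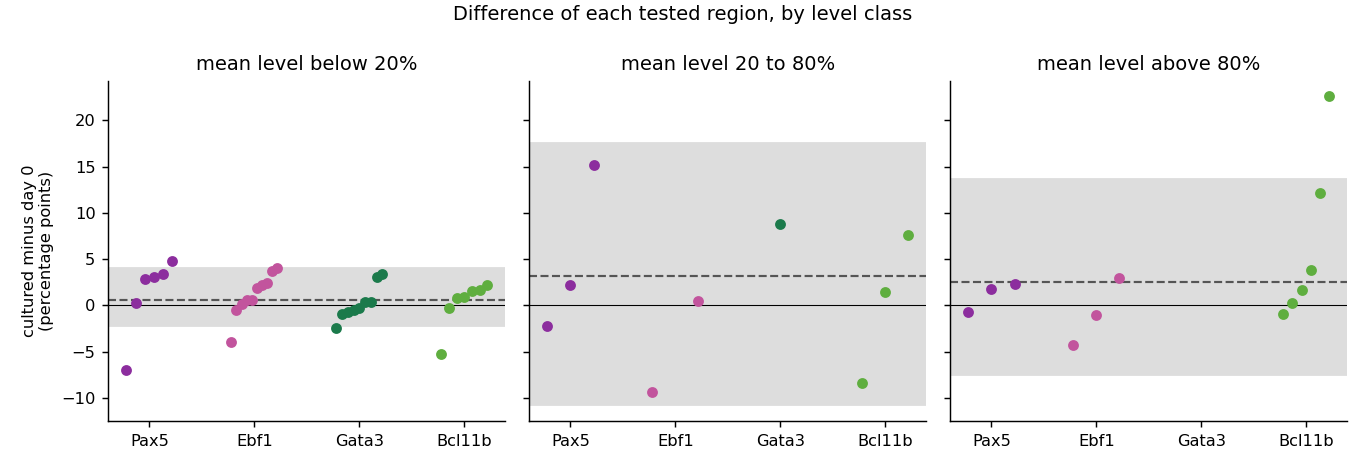
Difference of each of the 53 tested lymphoid regions, cultured minus day 0 in percentage points, by gene and by class of mean level. Grey bands span the central 90% and dashed lines the medians (0.605, 3.23 and 2.5 points) of all autosomal regions of the class. The Bcl11b point at 22.6 lies above its band. In the class below 20%, Pax5 and Ebf1 points lie above the band (4.78 and 4.10). Points of each gene lie below it there (-6.94 at Pax5, -5.29 at Bcl11b, -3.98 at Ebf1 and -2.39 at Gata3).

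The 32 lymphoid regions below 20% averaged 5.12% and 5.56% in uncultured marrow, 5.205% and 5.42% on day 4 and 6.90% and 6.66% on day 7. The 23078 autosomal regions of that class averaged 2.31% ± 0.107 in uncultured marrow, 2.35% ± 0.106 on day 4 and 3.64% ± 0.110 on day 7 (SD, n = 2 each). Both sets had their highest values on day 7. The 12 lymphoid regions above 80% averaged 85.9% and 82.9% in uncultured marrow, 86.5% and 81.95% on day 4 and 90.4% and 92.3% on day 7. In 8 of the 12 (66.7%) the cultured mean was above the day 0 mean, as in 66.7% of autosomal regions of the class. For day 7 against day 0, 10 of the 12 were positive (83.3%, beside 65.3% of autosomal ones), among them 6 of 6 at Bcl11b. For day 4 against day 0, 3 of the 12 were positive (25%, beside 65.9%). Of the 9 lymphoid regions between 20% and 80%, the cultured mean was higher in 6 (66.7%, beside 65.6%). These counts carry no test. Classes are set by the mean of all 6 samples, so the cultured samples help to decide which regions are counted. Above 80%, Bcl11b regions with day 0 means of 68.7% and 74.4% and an Ebf1 region with 79.4% are included only through their cultured samples. The share of positive regions on day 7 is therefore no separate evidence.

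The separate culture stages gave no calls either. For day 4 against day 0, 0 of 53 regions were called (0.00178% of all regions), and 2 had an unadjusted p below 0.05 in edgeR's likelihood ratio test (3.77%, beside 6.6% of all regions), 1 in its quasi-likelihood test (beside 3.37%) and 1 in limma (beside 4.32%); these last tests called 0 of all regions. Both samples of day 4 were above those of day 0 in 9 regions (beside 20.6% of all regions) and below them in 6 (beside 10.3%), which is 17% and 11.3% of the 53. The median difference was -0.166 points over the 53 and 0.44 over all regions. For day 7 against day 0, 0 of 53 were called (0.497% of all regions, 0.132% of autosomal ones), and 5 had an unadjusted p below 0.05 (9.43%, beside 12.9%), 4 in the quasi-likelihood test (beside 8.12%) and 4 in limma (beside 12.8%). The quasi-likelihood test called 174 of all regions and limma 47, and 0 of the 53. Day 7 was above day 0 without overlap in 19 regions (35.8%, beside 29.8%) and below in 4 (7.55%, beside 7.03%). Of the 19, Bcl11b had 9 of its 16 regions, Pax5 6 of 12, Ebf1 2 of 15 and Gata3 2 of 10. The median difference was 2.42 points over the 53 and 1.53 over all regions.

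For day 7 against day 4, 0 of 53 were called (0.451% of all regions, 0.102% of autosomal ones), and 5 had an unadjusted p below 0.05 in edgeR's likelihood ratio test (9.43%, beside 11.4%), 3 in its quasi-likelihood test (beside 7.07%) and 3 in limma (beside 11.1%). The quasi-likelihood test called 166 of all regions and limma 63, and 0 of the 53. Day 7 was above day 4 without overlap in 14 regions (26.4%, beside 24.4%) and below in 5 (9.43%, beside 10.3%). The median difference was 2.66 points over the 53 and 0.958 over all regions. The lowest adjusted p, 0.139 in edgeR, was at 8 Bcl11b cytosines from 109242445 to 109242485, which had 6.82% in each uncultured sample, 2.17% and 0.917% on day 4 and 7.25% and 15.7% on day 7. There day 4 was lowest and day 7 highest, without overlap. The lowest adjusted p at Pax5 in this comparison, 0.362 in edgeR, was at 5 cytosines 5.92 kb before the start, with 5.26% and 0% in uncultured marrow, 3.17% and 1.85% on day 4 and 6.98% and 17.65% on day 7. Both regions were picked after their values were seen.

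Of the 589 cytosines 18 had at least 10 reads in each sample, and the 12 of them with both methylated and unmethylated reads were tested singly. In no comparison did either edgeR test call one, so 0 of 12 were called. Of all 10559 tested, the likelihood ratio test called 0% for all cultured samples and also 0% for day 4, each set against day 0, while day 7 had 0.104% against day 0 and 0.123% against day 4; the quasi-likelihood test 0%, 0%, 0.0663% and 0.0758% in the same order. Of the 12, 0 had an unadjusted p below 0.05 for cultured against day 0 by either test, beside 5.72% of all 10559 by the likelihood ratio and 1.34% by the quasi-likelihood test. For day 4 against day 0, 1 of the 12 did by the likelihood ratio test (8.33%, beside 3.71%). At a minimum of 5 reads, 215 lymphoid cytosines were tested and 0 called, beside 0%, 0.000504%, 0.00907% and 0.00605% of all 198470 in the same order of comparisons. For cultured against day 0, 16 of the 215 had an unadjusted p below 0.05 (7.44%, beside 6.64%). Over the 583 lymphoid cytosines read in every sample, 31 had all cultured samples above both day 0 samples (5.32%, beside 5.89% of the table) and 19 below (3.26%, beside 1.8%). Of those above, 15 were at Bcl11b (7.58% of its cytosines), 9 at Ebf1 (6.87%), 6 at Pax5 (4.2%), 1 at Gata3 (1.01%) and 0 at Cd79a. Of those below, 6 were at Pax5 (4.2% of its cytosines), 5 at Ebf1 (3.82%), 4 at Gata3 (4.04%), 4 at Bcl11b (2.02%) and 0 at Cd79a.

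A few single cytosines had larger differences than any tested region, on few reads, and were picked after their values were seen. The Ebf1 cytosine at 44578669, 144939 bases after the start, had 36.4% and 30% in uncultured marrow, 85.7% and 83.3% on day 4 and 71.4% and 80% on day 7, on 5 to 11 reads. Its cultured mean was 46.9 points above that of day 0 (adjusted p = 0.524, edgeR with at least 5 reads). The Pax5 cytosine at 44610795, 112771 bases after the start, had 44.4% and 57.1% in uncultured marrow, 80% and 70% on day 4 and 100% and 80% on day 7, on 5 to 10 reads (difference 31.7 points, adjusted p = 0.717, edgeR). In both, the cultured samples all lay above day 0. The Gata3 cytosine at 9791032 had the reverse order, with 37.5% and 38.5% in uncultured marrow, 15.8% and 16.7% on day 4 and 7.69% and 0% on day 7, on 5 to 19 reads. Its difference was -27.9 points (adjusted p = 0.618, edgeR).

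**Figure D4:**
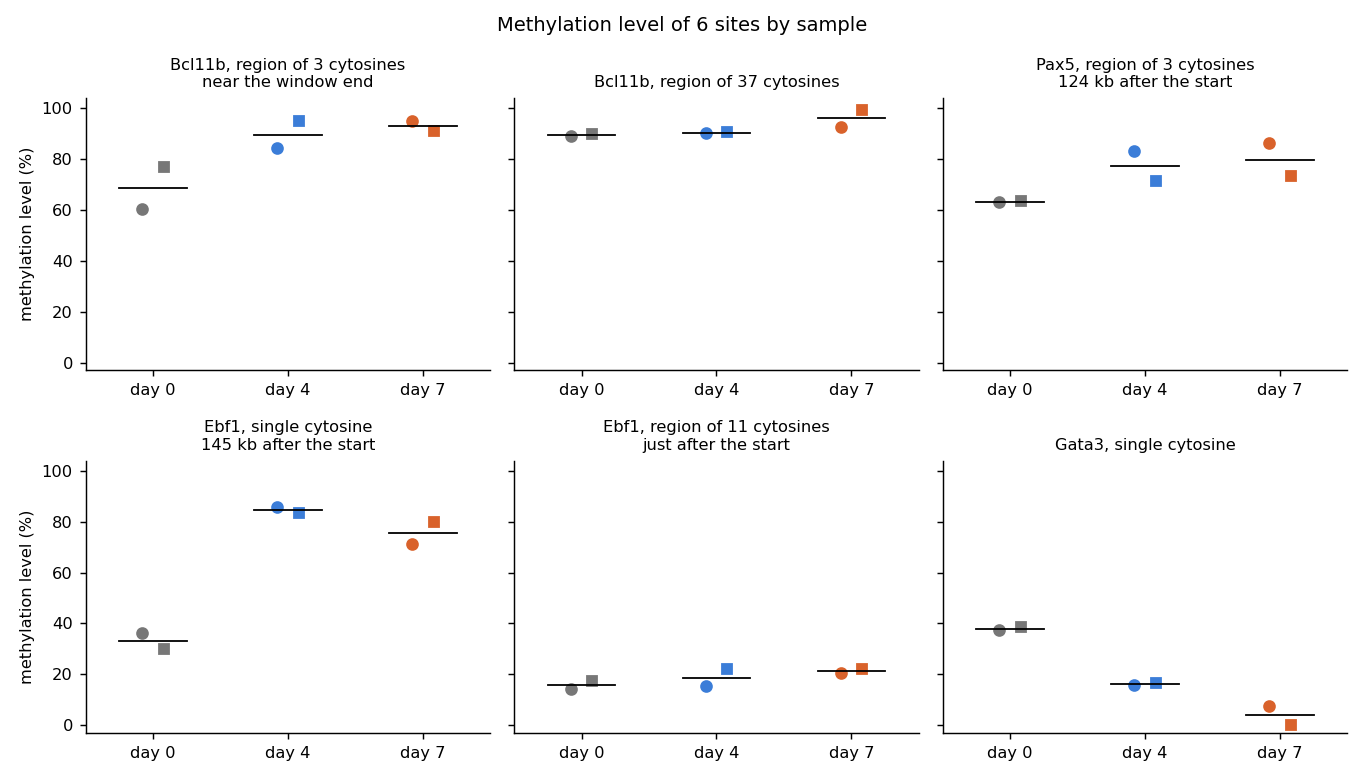
Methylation level (%) by day of culture at 4 regions and 2 single cytosines of the lymphoid windows. Each point is 1 sample (circle for the lower and square for the higher replicate number of the day) and each line the mean of 2; 4 sites lie above day 0 in every cultured sample, the Ebf1 region just after the start overlaps day 0, and the Gata3 cytosine lies below it.

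Other lymphoid genes could be seen only through promoters placed in the same way. Of 35 listed genes, 8 had no promoter sequence to place; 0 of 15 of the B lineage and 3 of 20 of the T lineage were placed, and 1 of these, Tcf7, by the planned minimum. Tcf7, a transcription factor of early T cells, had 0% to 2.40% over 16 promoter cytosines in the 6 samples. At its second start, 6 cytosines ranged from 2.86% to 23.2%, with overlapping days. Notch1, the receptor whose signal starts T cell specification, had 0 methylated of 60 and 32 reads in uncultured marrow, 2 of 34 and 0 of 36 on day 4, and 0 of 44 and 38 on day 7. Runx3, a factor of cytotoxic T cells that dendritic cells also use, had 0% to 2.5%. The Notch1 and Runx3 placements are uncertain: 6 listed cytosines lay at CpG sites, and 5 at the next best offset.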

How the data were processed

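Reduced representation bisulfite sequencing was done on 6 samples, and per the submitters' processing notes Bismark and Bowtie2 were used on mm9. The sources used here give neither their versions nor any handling of duplicate reads. The deposited table holds, per cytosine and sample, the authors' methylated fraction and their counts of unmethylated and methylated reads; the counts were used. The members and lists were chosen with earlier results of these data known. Cytosines were joined into regions (at least 3, neighbours at most 100 bp apart, at least 10 reads in each sample); features with only methylated or only unmethylated reads were left out of tests. edgeR 4.0.16 in R 4.3.3 fitted methylated and unmethylated counts over all 56105 regions and 6 samples, with a term per sample and a methylation term per day, dispersion without trend, a likelihood ratio test and Benjamini-Hochberg adjustment. On simulated data with the depths of these samples, differences between cultured and day 0 samples were planted in regions of intermediate level only. The test recovered most of the large planted differences and none of those as small as the minimum difference. A count of 0 called therefore does not show that levels were alike. Most lymphoid regions lie below 20% or above 80%, where recovery was not simulated. limma 3.58.1 on log2 ratios (pseudocount 0.5), the quasi-likelihood test and other settings were alternatives. Window levels were compared by exact permutation of samples (scipy 1.17.1), where 2 against 2 cannot go below 0.333. Named regions were, per window, called ones, the region below 20% with most cytosines, up to 3 with the largest non-overlapping difference at 20 or more reads per sample (else the single largest), and those at a placed promoter; others are given to account for the members. The labels do not say whether samples are separate animals, so each p-value measures only how far these samples scatter, possibly for technical reasons. Replicates of a day differed by 1.80, 1.73 and 1.89 times counting noise (chi-square per degree of freedom). Reads carry no molecular identifiers, so limits from 0 counts (3 reads) cover counting error only. As a check, the Ebf1 placement lay at the same displacement from its GRCm38 position as that of Tcf7 on the same chromosome (a shift of -186498 bases); Pax5 and Runx3, far apart on chromosome 4, lay at shifts of 12872 and 349784 bases, so that pair gives no such check.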

Additional observations from a re-analysis of the deposited data

Results flagged for a closer look

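The chromosome X reads stood apart in the day 7 libraries: reads per X cytosine relative to autosomal cytosines were 1.01 and 1.07 there, against 0.6665 and 0.650 in uncultured marrow and 0.684 and 0.688 on day 4. The 386 X regions below 20% in both day 0 samples averaged 23.3% and 23.9% on day 7, against 1.21% and 1.53% in uncultured marrow and 1.51% and 1.43% on day 4. The lymphoid windows are autosomal, but X regions are fitted and adjusted with them: with autosomes fitted and adjusted alone, the lowest adjusted p of a lymphoid region was 0.2128 in place of 0.1388 for day 7 against day 4 and 0.1968 in place of 0.1539 for day 7 against day 0 (edgeR), with 0 called. The part of this difference in their day 7 levels was not tested.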

How the results depend on the processing

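Over the 4 comparisons together 67 alternatives were run, and the count of called lymphoid regions was 0 in each. The lowest adjusted p of a lymphoid region went down to 0.0878 (day 7 against day 4, neighbours at most 200 bp apart, edgeR). For cultured against day 0 it was 0.242 as reported, 0.942 in the quasi-likelihood test of edgeR and 0.586 in limma. The fit of only the groups compared equals the reported one for cultured against day 0. No paired analysis was possible because the groups compared share fewer than 2 replicate numbers. With 6 in place of 8 listed cytosines, 2 members were placed in place of 0. Of 158 alternatives for the 20 window differences, 18 turned the sign. With reads pooled, cultured minus day 0 at Gata3 was 0.484, day 4 minus day 0 at Bcl11b -1.82 and day 7 minus day 4 at Cd79a -3.05, against 6.62 by the mean over cytosines. With at least 10 reads per cytosine, cultured minus day 0 at Gata3 was 0.534, and day 4 minus day 0 was -0.898 at Ebf1 (7 cytosines) and 0.137 at Gata3 (11 cytosines). At cytosines of 20% or more, day 7 minus day 0 at Gata3 was -0.692 and day 7 minus day 4 at Ebf1 -0.580. Leaving out 1 sample gave ranges of -0.578 to 0.841 for cultured minus day 0 at Gata3; of -0.145 to 2.10 at Pax5, -1.33 to 2.02 at Cd79a, -3.24 to 0.887 at Gata3 and -0.174 to 1.05 at Bcl11b for day 4 minus day 0; and of -0.504 to 1.70 at Ebf1 and -0.0682 to 4.06 at Gata3 for day 7 minus day 4. Among the named regions it gave -0.942 to 5.83 (Ebf1, 44433495), -0.221 to 7.58 (Ebf1, 44433747), -19.2 to 0.406 (Ebf1, 44591169), -0.162 to 0.930 (Gata3, 9804400) and -0.748 to 7.66 (Gata3, 9806082). The cause was not tested. Depth limits single sites most: 18 of 589 cytosines reached 10 reads in every sample.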
